A study of Homo sapiens with 12 samples.

Results

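The transcripts of 10 genes that make, carry or sense bile acids were followed in HuH-7 cells exposed to SLMP53-2: CYP7A1, CYP8B1, CYP27A1, BAAT, SLC10A1, ABCB11, NR1H4, NR0B2, FGF19 and FGFR4. The genes were chosen by name, as every non-control probe of the array whose gene name in the scanner files was one of these symbols. This gave 11 probes of 41000, FGF19 having 2, and 10 gene names of 29123. HuH-7 is a line grown from a human hepatocellular carcinoma, and all samples shared its mutant p53, Y220C. SLMP53-2 is a small molecule under study as a reactivator of that mutant. Cells received DMSO, 28 µM SLMP53-2 or 42 µM SLMP53-2 for 24 h, the doses being 2 and 3 times its growth-inhibitory IC50 in this line. Each group held 4 biological replicates, hybridized on 1 array each. One label field of the higher dose reads 48 µM where the sample titles, the series design and the methods read 42 µM, and the higher dose is called 42 µM here. The DMSO arrays served both doses, so the comparisons of each dose with DMSO share their controls.

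Hepatocytes break down cholesterol to bile acids. In the classic route CYP7A1 adds the first hydroxyl group and sets the rate, CYP8B1 adds the hydroxyl group that makes cholic acid, and CYP27A1 oxidizes the side chain and also opens an alternative route, after which BAAT joins the acid to glycine or taurine. SLC10A1 (NTCP) takes bile salts back up from blood and ABCB11 (BSEP) pumps them into the canaliculus. The nuclear receptor NR1H4 (FXR) is switched on by bile acids and raises NR0B2 (SHP), a receptor without a DNA-binding domain that represses CYP7A1 and CYP8B1. FGF19, a hormone released mainly by the ileum but also made by some liver tumours, represses the same enzymes through FGFR4 and its coreceptor KLB.

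Levels are given as background-corrected, quantile-normalized log2 intensities of one probe, so that a level says nothing of one gene against another, and changes are differences of group means on that scale. A gene was called where limma gave a Benjamini-Hochberg adjusted p below 0.05 over the 33476 probes tested and the log2 change was at least 0.6 in size. Between 65.0% and 85.0% of gene spots were well above background on each array. At 42 µM, 2.99% of the 24176 gene names tested were called against DMSO (724 genes, 381 higher and 343 lower). At 28 µM 0% were called, with 11.9% at an unadjusted p below 0.05, and between the doses 0% were called, with 2.59% at an unadjusted p below 0.05. The study itself reports differentially expressed genes at 28 µM by the same adjusted p and log2 limits, with a large part shared with 42 µM. It also measured selected genes by qPCR at 28 µM. The reason for this difference in calls was not tested. Replicate 4 of 28 µM stood near the DMSO arrays: the genes called at 42 µM had moved there by a median of 0.14 in their own direction, while the remaining 28 µM arrays gave 0.71 to 0.90 and the 42 µM arrays 0.76 to 1.17. Calls at 28 µM that turned on that array are therefore also given without it. It was picked out by the genes called at 42 µM, a set that holds NR0B2, SULT2A1, MAFG and ABCC3. Larger changes and smaller p of these genes without it follow in part from that choice and are no separate support. All 10 hepatocyte markers examined, ALB, TF and APOA1 among them, were measured, and 9 had a probe well above background on every array. Of 11 markers of other liver cells 10 were measured and 6 had a probe above background on every array, KRT19 and CD14 among them. No marker of either list was called at either dose, although 3 of the other-cell markers differed from DMSO by an unadjusted p below 0.05, CD68 (0.35 at 28 µM and 0.36 at 42 µM), CFTR (-0.33 and -0.39) and, at the lower dose, DCN (-0.39). All samples were cultures of the HuH-7 line, and whether the line itself gave the signals of these other-cell markers was not tested.

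Of the 10 bile acid genes, 8 had a tested probe and 7 were well above background on all 12 arrays. At 42 µM 1 of the 8 was called, NR0B2, which was higher. At 28 µM 0 of the 8 were called, and between the doses 0 of the 8 were called. By an unadjusted p below 0.05 alone, 1 of the 8 was higher at 28 µM (NR0B2) and 0 were lower, beside 5.59% and 6.29% of all gene names. At 42 µM 2 were higher (NR0B2 and FGF19) and 1 was lower (NR1H4), beside 8.36% and 7.71% of all gene names, or 16.1% together. Between the doses 0 were higher and 1 was lower at 42 µM (NR1H4), beside 1.12% and 1.46%. The median change of the 8 genes was 0.08 at 28 µM and 0.13 at 42 µM, beside -0.02 for all gene names tested at either dose. At 42 µM all arrays lay above all DMSO arrays for 1 of the 8 (NR0B2) and below them for 1 (NR1H4), where 5.94% and 7.02% of all gene names did so, 13% together. At 28 µM all arrays lay above DMSO for 1 of the 8 (NR0B2) and below for 0, where 2.79% and 2.94% of all gene names did so, 5.72% together. Between the doses the arrays overlapped for each of the 8, where 0.687% of all gene names lay wholly above and 0.922% wholly below, 1.61% together. As RNA of whole cultures was measured, fewer cells carrying a transcript and less transcript per cell cannot be told apart.

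**Figure D1:**
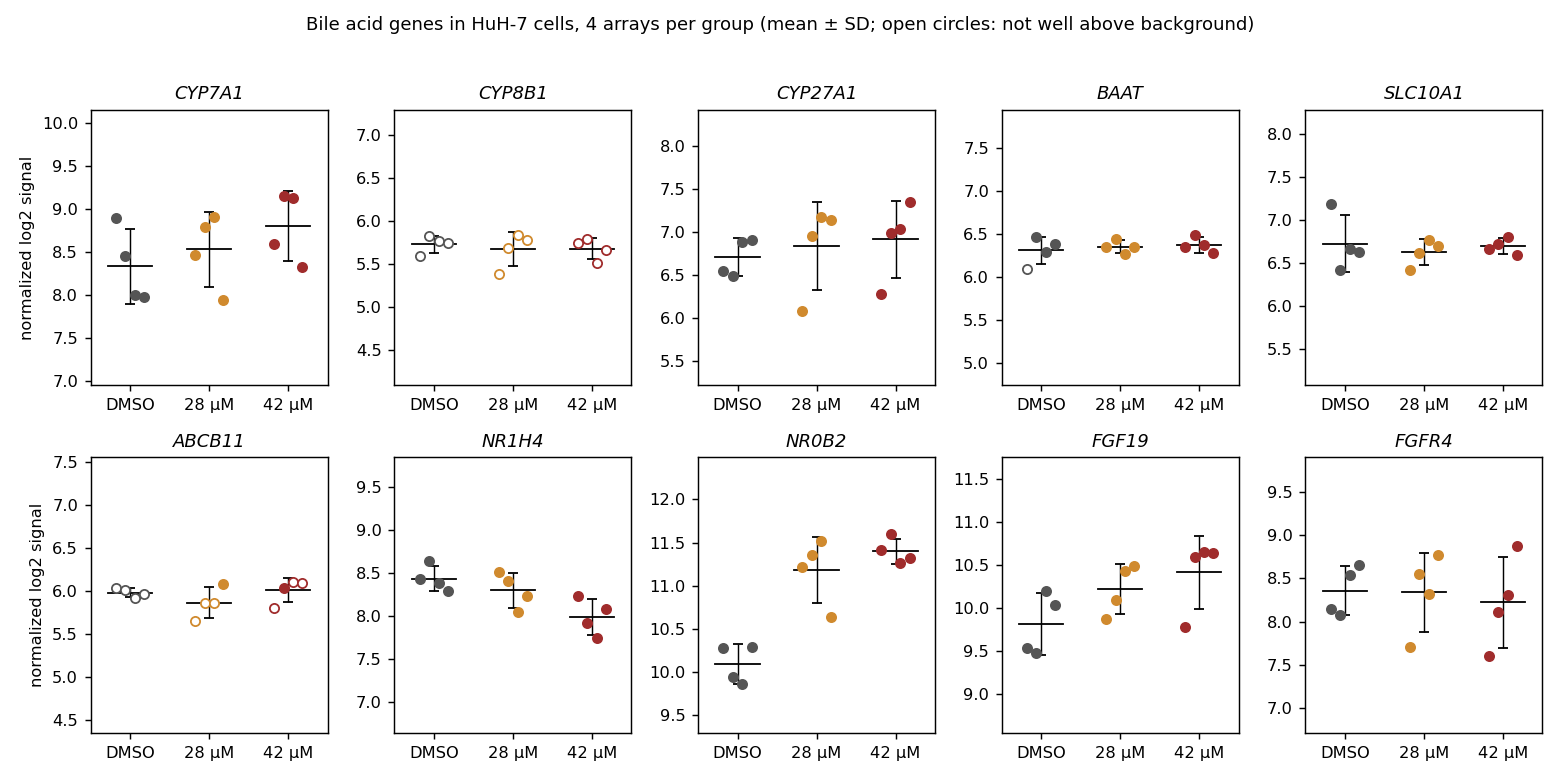
Log2 intensity of the lead probe of each of the 10 genes on the 12 arrays, by group (DMSO, 28 µM and 42 µM SLMP53-2), with points for arrays, bars for the mean ± SD (n = 4) and open circles for arrays where the probe was not well above background. NR0B2 alone lies above DMSO on every treated array, and CYP8B1 is shown by open circles on all 12 arrays.

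NR0B2, the repressor of bile acid synthesis that bile acids switch on through NR1H4, gave the clearest difference of the 10 genes. Its probe lies at chr1:27238183-27238242 of hg19, on the minus strand, and the bases below are its 5′ end, shown because every NR0B2 value rests on this one probe.
NR0B2 probe, chr1:27238213-27238242: gggcaagcctgtatagacagcacttggctc
The level of NR0B2 on the DMSO arrays was 10.28, 9.93, 9.86 and 10.29 for replicates 1 to 4. At 28 µM it was 11.21, 11.35, 11.52 and 10.63, and at 42 µM it was 11.41, 11.60, 11.26 and 11.32. All 8 treated arrays lay above all 4 DMSO arrays, and the lowest of them was replicate 4 of 28 µM, the array that stood near DMSO over all genes. Mean levels were 10.09 ± 0.23 for DMSO, 11.18 ± 0.39 for 28 µM and 11.40 ± 0.15 for 42 µM (SD, n = 4). NR0B2 rose at 42 µM by 1.31 on the log2 scale (SE 0.18, 95% interval 0.92 to 1.70), 2.48-fold, with an adjusted p of 0.0112 in limma. By its unadjusted p it ranked 14 among the probes tested. At 28 µM the change was 1.09 (SE 0.18, 95% interval 0.70 to 1.48), 2.13-fold, and ranked 9, but the smallest adjusted p of that whole comparison was 0.116 and NR0B2 had that value in limma. Without replicate 4 of 28 µM it was called at 28 µM as well, at 1.27 (SE 0.15, adjusted p 0.00127 in limma). As that array was picked out by genes that include NR0B2, this call is no separate support. The doses differed by 0.22 (42 µM minus 28 µM, 95% interval -0.17 to 0.61), so the order 28 µM below 42 µM did not exceed the spread between arrays.

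The arrays sat on 5 slides, and each slide held 2 or 3 of the groups. Within a slide NR0B2 was higher than DMSO in all pairs available: at 42 µM by 1.12 on slide 2, 1.74 on slide 4 and 1.32 on slide 5, and at 28 µM by 1.24 on slide 1, 0.92 on slide 2 and 0.78 on slide 4. With the slide as a block the change at 42 µM was 1.37 and the call was lost, with an adjusted p of 0.0561 in limma. The call was also lost without replicate 2 of DMSO (1.26, adjusted p 0.0507) or without replicate 2 of 42 µM (1.24, adjusted p 0.0525), and in each of these 2 fits 0 probes of the array were called at 42 µM, against 885 with all arrays. Left out in turn, the arrays moved the NR0B2 change at 42 µM only between 1.23 and 1.37.

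**Figure D2:**
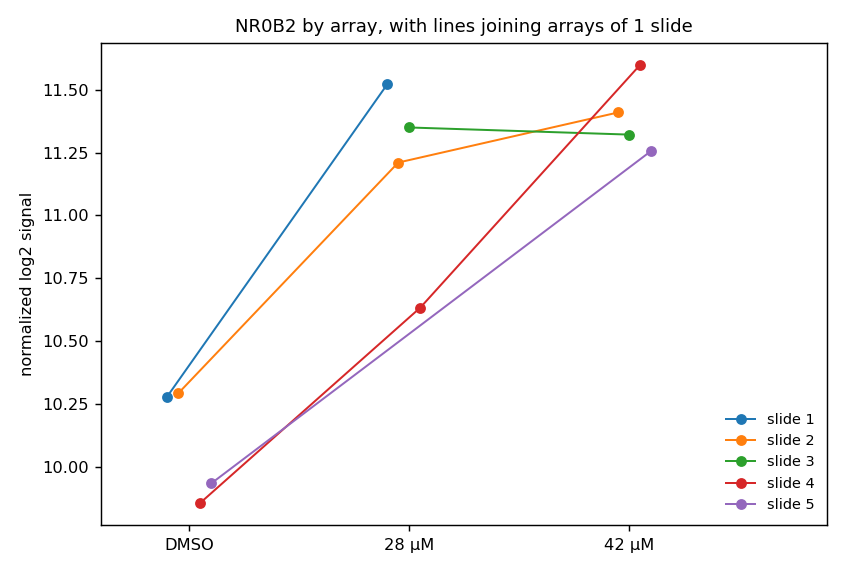
Log2 intensity of the NR0B2 probe on each array by group, with lines joining arrays of one slide. Every line from a DMSO array goes up to the treated arrays of its slide, by 0.78 to 1.24 at 28 µM and by 1.12 to 1.74 at 42 µM.

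Among the other gene names tested, those whose pattern over the 12 arrays lay nearest to NR0B2, each centred on its DMSO mean, were EIF4EBP1, SQSTM1 and SHC2. EIF4EBP1, an inhibitor of cap-dependent translation, differed from it by a root mean square of 0.15 and had mean changes of 0.96 at 28 µM and 1.27 at 42 µM. SQSTM1, an autophagy receptor, differed by 0.18 with mean changes of 1.04 and 1.39. SHC2, a signalling adaptor, differed by 0.19 with mean changes of 0.95 and 1.37. This likeness is a description over 12 arrays of 3 groups, without a test.

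NR1H4 encodes FXR, the receptor that senses bile acids, and at 42 µM its difference from DMSO had the sign opposite to that of NR0B2. Its probe lies at chr12:100957191-100957250 of hg19, on the plus strand, and is printed because all its values rest on it.
NR1H4 probe, chr12:100957191-100957250: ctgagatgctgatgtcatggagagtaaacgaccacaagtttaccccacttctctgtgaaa
The level of NR1H4 was 8.43, 8.64, 8.39 and 8.29 on the DMSO arrays, 8.51, 8.40, 8.05 and 8.23 at 28 µM, and 8.23, 7.92, 7.74 and 8.08 at 42 µM, for replicates 1 to 4. The 42 µM arrays all lay below the DMSO arrays, while the 28 µM arrays overlapped both groups. The difference at 42 µM was -0.44 (SE 0.14, 95% interval -0.74 to -0.14), or 1.36-fold lower. It missed both limits of a call, being smaller than 0.6 in size and having an adjusted p of 0.113 in limma. At 28 µM it was -0.14 (95% interval -0.44 to 0.16). Between the doses it was -0.31 (95% interval -0.61 to -0.01), with an unadjusted p of 0.0450 in limma and no call after adjustment. Within slides 2, 4 and 5 the difference of 42 µM from DMSO ran from -0.90 to -0.06, negative on each. Within slides 1, 2 and 4 the difference of 28 µM was -0.38, 0.22 and -0.15, so that the sign was not the same on each slide. No alternative setting or left-out array brought NR1H4 at 42 µM past either limit. The change ranged from -0.55 to -0.36 and the adjusted p from 0.0612 to 0.303 in limma.

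FGF19, the hormone that represses bile acid synthesis, was measured by 2 probes on the minus strand of chromosome 11, at 69513700-69513759 and at 69513911-69513970 of hg19. The brighter probe, taken for the gene, gave 9.53, 9.48, 10.20 and 10.03 with DMSO, 9.87, 10.09, 10.43 and 10.48 at 28 µM, and 9.78, 10.59, 10.65 and 10.63 at 42 µM. At 42 µM replicates 2 to 4 lay above all DMSO arrays and replicate 1 lay among them. The means were 9.81 ± 0.36, 10.22 ± 0.29 and 10.41 ± 0.43 (SD, n = 4). The difference from DMSO was 0.60 at 42 µM (SE 0.23, 95% interval 0.11 to 1.09) and 0.41 at 28 µM (95% interval -0.08 to 0.90), with adjusted p of 0.199 and 0.536 in limma. The other probe gave 0.52 and 0.45, in the same order, with adjusted p of 0.289 and 0.495. Within slides the difference at 42 µM ran from -0.25 on slide 2, which held replicate 1 of 42 µM, to 1.17 on slide 5.

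FGFR4, the receptor of FGF19 on hepatocytes, did not pass the test at either dose. Its probe lies at chr5:176523121-176523180 of hg19, on the plus strand. It gave 8.15, 8.08, 8.54 and 8.66 with DMSO, 7.70, 8.56, 8.32 and 8.77 at 28 µM, and 7.60, 8.11, 8.31 and 8.88 at 42 µM. The 3 groups overlapped over most of their range, and both the lowest 28 µM array and the lowest 42 µM array were replicate 1. The difference was -0.02 at 28 µM (95% interval -0.60 to 0.56) and -0.13 at 42 µM (95% interval -0.71 to 0.44). KLB, the coreceptor that FGF19 needs beside FGFR4, had 3 tested probes, none of them called. Its brightest probe lay below all DMSO arrays on all 4 arrays of 42 µM, at a difference of -0.36 with an adjusted p of 0.162 in limma. The others, at -0.28 and -0.26 (adjusted p 0.395 and 0.518), overlapped with DMSO. KLB was singled out after its values were seen.

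CYP7A1, the rate-limiting enzyme of the classic route and a target of NR0B2, was well above background on all 12 arrays. Its probe lies on the minus strand of chromosome 8 at 59403414-59403473 of hg19. The level was 8.90, 8.45, 8.00 and 7.98 with DMSO, 8.47, 8.80, 8.91 and 7.95 at 28 µM, and 8.59, 9.15, 9.13 and 8.33 at 42 µM. The DMSO arrays alone spanned nearly the whole range of the 28 µM arrays, and replicates 2 and 3 of 42 µM lay above every DMSO array. The difference was 0.20 at 28 µM (95% interval -0.37 to 0.76, adjusted p 0.804 in limma) and 0.47 at 42 µM (SE 0.26, 95% interval -0.10 to 1.03, adjusted p 0.448 in limma). Without replicate 4 of 28 µM the difference at 28 µM was 0.39, with an adjusted p of 0.486 in limma. Within slides 2, 4 and 5 the 42 µM array was the higher each time, by 0.61 to 1.15.

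Of the other synthesis enzymes CYP27A1 and BAAT were tested, and neither passed at either dose. CYP27A1, the sterol side-chain hydroxylase of mitochondria, gave 6.55, 6.49, 6.89 and 6.91 with DMSO, 6.08, 6.95, 7.18 and 7.14 at 28 µM, and 6.28, 6.98, 7.04 and 7.34 at 42 µM, from a probe at chr2:219677143-219677332 of hg19. In both treated groups replicate 1 was the lowest array, below all DMSO arrays, and the other treated arrays lay above them. The difference was 0.13 at 28 µM (95% interval -0.42 to 0.68) and 0.20 at 42 µM (95% interval -0.35 to 0.75). Single arrays moved both values. At 28 µM it was 0.38 without replicate 1 and 0.015 without replicate 3 of that dose, and at 42 µM it was 0.41 without replicate 1 and 0.059 without replicate 4.

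BAAT, the enzyme that conjugates bile acids, was well above background on 11 of 12 arrays from a probe at chr9:104124710-104124769 of hg19. The DMSO arrays ranged between 6.10 and 6.46, the 28 µM arrays between 6.26 and 6.44 and the 42 µM arrays between 6.28 and 6.49. The groups overlapped almost fully, and the differences were 0.04 (95% interval -0.19 to 0.27) and 0.06 (95% interval -0.17 to 0.30). CYP8B1, the sterol 12-hydroxylase, was not well above background on any of the 12 arrays from its probe at chr3:42913685-42913744 of hg19. The DMSO arrays read between 5.59 and 5.83, the 28 µM arrays between 5.39 and 5.84 and the 42 µM arrays between 5.51 and 5.79, and the probe was not tested.

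**Figure D3:**
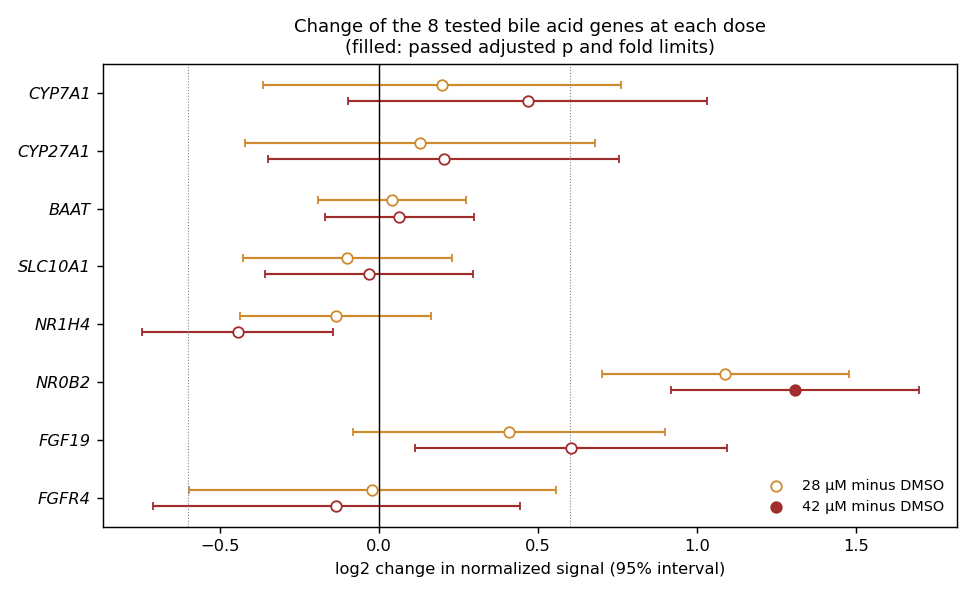
Log2 change from DMSO of the 8 tested genes at 28 µM and 42 µM, with bars for the 95% interval and a filled symbol where the gene was called. NR0B2 at 42 µM (1.31, interval 0.92 to 1.70) is the filled point, and the intervals of CYP27A1, BAAT, SLC10A1, FGFR4 and CYP7A1 cross 0 at both doses.

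The transporters gave no called difference, and one of the pair was hardly detected. SLC10A1, the sodium-dependent uptake carrier, was well above background on all 12 arrays from a probe at chr14:70242882-70242941 of hg19. It gave 7.19, 6.42, 6.67 and 6.63 with DMSO, 6.42, 6.62, 6.77 and 6.70 at 28 µM, and 6.66, 6.72, 6.81 and 6.59 at 42 µM. Replicate 1 of DMSO was the highest of all arrays and the treated arrays lay within the DMSO range. The difference was -0.10 at 28 µM (95% interval -0.43 to 0.23) and -0.03 at 42 µM (95% interval -0.36 to 0.30).

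ABCB11, the bile salt export pump and a target of NR1H4, was well above background on 2 of 12 arrays, replicate 4 of 28 µM and replicate 2 of 42 µM, and was not tested. Its probe at chr2:169779561-169779620 of hg19 gave levels from 5.92 to 6.03 in DMSO cells, from 5.65 to 6.09 with 28 µM and from 5.80 to 6.11 with 42 µM. The groups overlapped, and no direction can be read from values this near background.

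The RefSeq promoter table of GRCh38.p14 held 8 windows of 300 bases for 6 of the 10 genes, ABCB11, BAAT, CYP27A1, FGFR4, NR1H4 and SLC10A1. They were searched on both strands for 3 motifs. TGATGNAA, the core of the element bound by C/EBP and ATF factors, stood in 1 of the 8 windows and in 3.62% of all 35116 windows. GTCANTGAC, a core of the inverted repeat bound by FXR with RXR, stood in 0 of the 8 and in 0.347% of all windows. CAAGGTCA, the extended monomer site bound by NR5A2, stood in 0 of the 8 and in 1.28% of all windows. Only matches to these exact letters were counted, with N for any base. At such low shares, 0 of 8 windows cannot show that looser sites are absent. The stretch with the match is shown because ABCB11 is the only one of the 6 genes to hold it, with the matching letters in capitals.
ABCB11 promoter stretch, chr2:169031302-169031331, minus strand of GRCh38.p14: gtgctttagaaTGATGAAAaccgaggttgg
The match covers bases 5 to 12 counted from the annotated start, so it lies downstream of that start. It is a description of letters, and ABCB11 itself was too dim for a change to be measured.

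Beyond the 10 genes, 44 other genes of bile acid metabolism were listed by role, and 39 had a tested probe. At 42 µM 3 of the 39 were called higher and 0 lower, while 1.58% of all gene names were called higher and 1.42% lower. The 3 were SULT2A1, MAFG and ABCC3, a detoxifying enzyme, a regulator and an exporter. At 28 µM 0 of the 39 were called. By an unadjusted p below 0.05 alone, 8 were higher and 0 lower at 28 µM, beside 5.59% and 6.29% of all gene names. At 42 µM 7 were higher and 1 lower, beside 8.36% and 7.71%. All arrays lay above all DMSO arrays for 5 genes at 28 µM and 7 at 42 µM, and below them for 0 and 2. Of all gene names, 2.79% and 5.94% lay above, and 2.94% and 7.02% below. Between the doses 0 were called. The median change of the 39 was 0.15 at 28 µM and 0.03 at 42 µM, beside -0.02 for all gene names at either dose. By role, the differences at 42 µM were positive for 4 of 12 synthesis enzymes, 6 of 7 sinusoidal carriers and 3 of 4 canalicular genes. They were also positive for 6 of 12 receptors and regulators and 3 of 3 detoxifying enzymes. At 28 µM the counts were 10, 7, 2, 5 and 3, in the same order. These genes include the detoxifying enzyme CYP3A4 and the canalicular ATP8B1, well above background on only 2 and 3 of the 12 arrays. Both passed the filter through the 28 µM arrays alone, and no direction can be read from their values. The median of the synthesis enzymes was 0.16 at 28 µM and -0.04 at 42 µM. HSD3B7, one of them, was counted through a probe placed on the minus strand, which gave -0.22 at 42 µM. Its other probe, placed on the plus strand, gave 0.09. SLC10A2, the ileal uptake carrier, and NR1I2, the xenobiotic receptor PXR, had no probe above background on any array.

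SULT2A1, the sulfotransferase that makes bile acids easier to excrete, gave 8.41, 8.68, 8.37 and 8.55 with DMSO, 9.56, 9.90, 9.52 and 8.68 at 28 µM, and 9.32, 9.70, 9.54 and 9.79 at 42 µM. All 42 µM arrays lay above all DMSO arrays, and of the 28 µM arrays only replicate 4 came level with the highest DMSO array. SULT2A1 rose at 42 µM by 1.08 (SE 0.21, 95% interval 0.62 to 1.54), 2.12-fold, with an adjusted p of 0.0187 in limma. At 28 µM the change was 0.91 (adjusted p 0.182), and without replicate 4 of 28 µM it was 1.16 (adjusted p 0.00214 in limma). A second probe of the gene gave 0.95 at 42 µM with an adjusted p of 0.0872. The call at 42 µM was lost with the slide as a block (0.99, adjusted p 0.0667), without any one of the DMSO arrays, and without replicate 2 of 42 µM (1.05, adjusted p 0.0750). Within slides 2, 4 and 5 the change was 0.77, 1.32 and 0.86.

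MAFG, a small MAF factor that FXR induces and that represses bile acid synthesis genes, gave 12.29, 12.14, 12.41 and 11.88 with DMSO, 12.95, 13.16, 12.98 and 12.25 at 28 µM, and 13.18, 13.20, 13.00 and 12.65 at 42 µM. Apart from replicate 4 of 28 µM, which lay among the DMSO arrays, the treated arrays lay above them all. MAFG rose at 42 µM by 0.83 (SE 0.20, 95% interval 0.40 to 1.25) with an adjusted p of 0.0404 in limma, and its second probe was called too, at 0.78 (adjusted p 0.0396). At 28 µM the change was 0.66 (adjusted p 0.241), and without replicate 4 of 28 µM it was 0.85 (adjusted p 0.0183 in limma). The call at 42 µM held in 4 of the 12 fits that each left out an array, being lost without any one DMSO array, without replicate 3 of 28 µM, or without replicate 1, 2 or 3 of 42 µM. With the slide as a block it was 0.87 with an adjusted p of 0.116, and within slides 2, 4 and 5 it was 1.30, 0.80 and 0.85.

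ABCC3 (MRP3), which exports conjugated bile acids back to blood, gave 7.51, 7.76, 7.69 and 7.87 with DMSO, 8.23, 8.49, 8.44 and 7.88 at 28 µM, and 8.25, 8.48, 8.62 and 8.19 at 42 µM. All treated arrays lay above the DMSO arrays, replicate 4 of 28 µM next to the highest of them. ABCC3 rose at 42 µM by 0.68 (SE 0.15, 95% interval 0.35 to 1.01) with an adjusted p of 0.0318 in limma. At 28 µM the change was 0.55 (adjusted p 0.216), and without replicate 4 of 28 µM it was 0.68 (adjusted p 0.0257 in limma). The call at 42 µM held in 5 of the 12 fits that each left out an array, being lost without any one DMSO array or without replicate 1, 2 or 3 of 42 µM. With the slide as a block it was 0.67 with an adjusted p of 0.103, and within slides 2, 4 and 5 it was 0.38, 0.79 and 0.86.

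The rest of the 39 genes did not pass the test at either dose, and those with the largest differences in each role at 42 µM were as follows. Among 12 synthesis enzymes AMACR, the racemase of side-chain shortening, lay above all DMSO arrays on every treated array, by 0.57 at 28 µM and 0.50 at 42 µM (adjusted p 0.194 and 0.0890 in limma). SLC27A5, the bile acid CoA ligase that works before BAAT, differed by 0.29 and 0.31. Among 7 sinusoidal carriers the uptake carrier SLCO1A2 differed by 0.35 and 0.46, with adjusted p of 0.397 and 0.113. Its other tested probes differed by 0.31 and 0.42, and by 0.21 and 0.06, the last probe being above background on 7 of 12 arrays. Among 4 canalicular genes ABCC2 (MRP2), which pumps conjugates into bile, lay above all DMSO arrays on every treated array, by 0.72 at 28 µM and 0.70 at 42 µM (adjusted p 0.194 and 0.0564 in limma). ABCC2 was called at 42 µM with the slide as a random block (adjusted p 0.0298), but not with the slide as a fixed block (adjusted p 0.0834). A second ABCC2 probe had mean levels of 9.28 with DMSO, 9.68 at 28 µM and 9.82 at 42 µM. TMEM30A, the partner subunit of the flippase ATP8B1, differed by -0.04 and -0.18. FABP6, the bile acid binding protein of the ileum, differed by 0.32 and -0.12 and was above background on 6 of 12 arrays. Among 12 receptors and regulators the coactivator PPARGC1A differed by 0.49 at 28 µM and 0.84 at 42 µM (adjusted p 0.513 and 0.107 in limma), and its second probe by 0.12 at 42 µM. PPARGC1A was called at 42 µM with only the 2 groups in the fit (adjusted p 0.0409). Among 3 detoxifying enzymes UGT2B4, which joins bile acids to glucuronic acid, differed by 0.05 and 0.15. A second UGT2B4 probe had mean levels of 8.41 with DMSO, 8.71 at 28 µM and 8.70 at 42 µM.

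**Figure D4:**
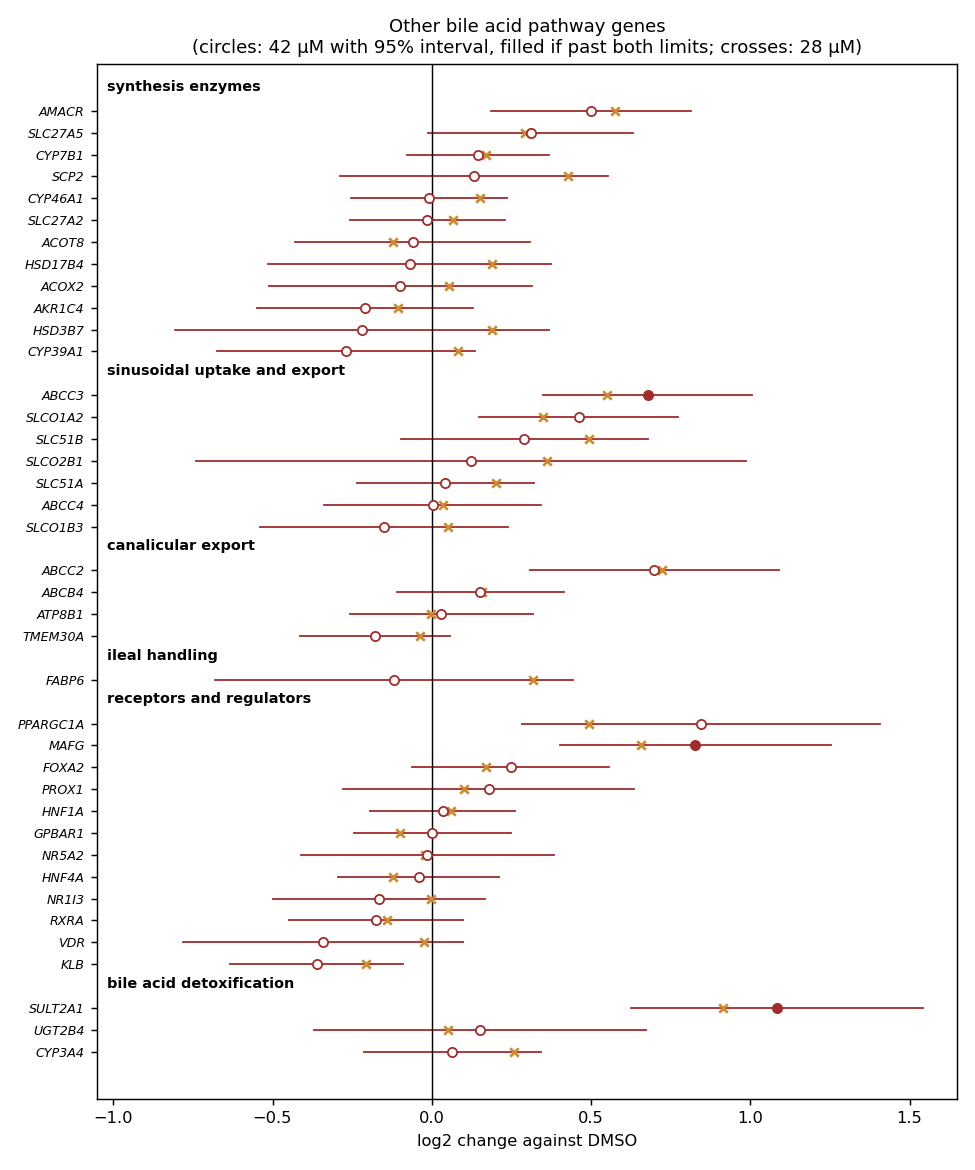
Log2 change from DMSO of the 39 other bile acid genes with a tested probe, grouped by role, with circles and 95% intervals for 42 µM, filled where called, and crosses for 28 µM. The filled circles are SULT2A1 (1.08), MAFG (0.83) and ABCC3 (0.68), all higher. The synthesis enzymes have a median of -0.04 at 42 µM and 0.16 at 28 µM.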

How the data were processed

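Per the labels, total RNA of 12 HuH-7 cultures was labelled with a single dye and hybridized to Agilent 4x44K whole human genome arrays. The submitters' processing notes name Agilent Feature Extraction 10.7.3.1 and limma. The labels name no slide, and the slide of each array was read from the barcode in the name of its scan, which gave 5 slides. The scanner files deposited by the authors hold spot intensities on a linear scale, and a deposited table of the whole series holds the authors' normalized values on a log2 scale, used here as an alternative only. Following the authors' methods, spot signals were background-corrected (Edwards method), turned to log2 and quantile-normalized. Control spots and outlier flags were left out, spots of one probe were averaged, and probes not well above background on 3 or more of 4 arrays in every group were not tested. A gene was represented by its brightest tested probe, and probes carry the names of the array's design. limma 3.58.1 (R 4.3.3) fitted all 12 arrays and 3 groups, with Benjamini-Hochberg adjustment over 33476 probes. A call needed an adjusted p below 0.05 and a log2 change of at least 0.6, the limit of the study's results; its methods name a stricter log2 limit of 1. Precision is limited by the 4 arrays per group. The scripts were tested on simulated data.

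The 10 genes, the list of 44 others, the markers and the motifs were chosen with earlier results of these data known, and support no claim of their own. Named with values were all 10 genes, the other genes called at either dose, the 2 of each role with the largest change at 42 µM, and the 3 gene names nearest to NR0B2. KLB, CD68, CFTR, DCN, CYP3A4, ATP8B1 and HSD3B7 were named beside this rule, after their values were seen. Probe coordinates are those of the scanner files (hg19); exon and UTR positions were not annotated here. Promoter windows came from RefSeq (GRCh38.p14) and were matched by symbol. Alternatives covered the background correction, scaling, dim-probe filter, slide, replicate number, arrays in the fit, fold limit, probe choice and leaving out each array.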

Additional observations from a re-analysis of the deposited data

Results flagged for a closer look

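One group of values stood out by a single array. Among the FGF19 levels at 42 µM, replicate 1 (9.78) lay apart from the other 3 arrays (10.59 to 10.65), its gap being 0.927 of the range of the group. The other FGF19 probe gave 8.92 on that array and 9.62 to 9.83 on the others. Without that array the difference of 42 µM from DMSO was 0.82, with an adjusted p of 0.0618 in limma, in place of 0.60 with all arrays. In all 33 groups of 4 arrays were checked in this way and 1 stood out, where chance alone marks about 1 in 20.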

How the results depend on the processing

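The 10 genes had 1 call at 42 µM, which went to 0 with the slide as a block and to 2 with the replicate block. The 39 other genes had 3 calls at 42 µM, against 0 on the processed signal with quantile normalization, 1 on the processed signal scaled to the 75th percentile, 0 with the slide as a block, 5 with the replicate block and 1 at a log2 limit of 1. Smaller moves were 4 calls with the slide as a random block, which added ABCC2, 4 with only the 2 groups compared, which added PPARGC1A (adjusted p 0.0409), and 2 on Edwards values scaled to the 75th percentile, which lost MAFG (adjusted p 0.0957). The cause was not tested, apart from the stricter limit. Leaving out an array gave 0 to 1 calls at 28 µM and 0 to 1 at 42 µM among the 10 genes, 0 to 3 and 0 to 5 among the others, and 0 to 0 between the doses; the upper ends at 28 µM came without replicate 4 of 28 µM. BAAT between the doses, 0.02 with all arrays, reversed to -0.083 and -0.17 on the processed signal with either scaling. Leaving out an array also turned the sign of uncalled changes near 0: FGFR4 ran up to 0.19 at 28 µM and 0.074 at 42 µM, each without replicate 1 of that dose, SLC10A1 to 0.056 and 0.12 without replicate 1 of DMSO, and BAAT to -0.029 and -0.0058 without the same array. NR0B2 at 42 µM stayed between 1.21 and 1.37 and was called in 10 of 11 other settings.

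Not every pair of same-numbered replicates deviated together. For numbers 1 to 4 the correlations of 28 µM with DMSO were -0.05, 0.22, 0.25 and -0.02, those of 42 µM with DMSO -0.01, -0.46, 0.21 and 0.41, and those of 42 µM with 28 µM 0.62, -0.07, 0.29 and 0.31. As no source says that a number marks a shared culture or day, the replicate block was kept as an alternative, under which FGF19 (adjusted p 0.0307), ABCC2 (adjusted p 0.00841) and PPARGC1A (adjusted p 0.0131) were also called at 42 µM. Samples did not all correlate best with their own number. Low signal limits CYP8B1 and ABCB11 to a statement on detection. With the same 4 arrays a group for every gene, the spread between arrays gave CYP7A1, CYP27A1 and FGFR4 the widest intervals.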

Other observations

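Replicate 1 of 28 µM and replicate 1 of 42 µM, both on slide 2, gave the lowest level of their group for 4 of the 10 genes, CYP27A1, FGFR4, FGF19 and ABCB11, the last of them hardly above background. For CYP27A1 they read 6.08 and 6.28, while the DMSO array of that slide, replicate 4, read 6.91, the highest of the DMSO arrays. For FGFR4 they read 7.70 and 7.60, and that DMSO array read 8.66, again the highest of its group. For ABCB11 they read 5.65 and 5.80, and that DMSO array read 5.96. For FGF19 they read 9.87 and 9.78, and that DMSO array read 10.03, below replicate 3 alone. NR1H4 went the other way, with these treated arrays the highest of their groups (8.51 and 8.23) and that DMSO array the lowest (8.29). The share of all gene names with either pattern was not counted. Over all probes tested, the deviations of the 2 treated arrays from their group means correlated at 0.62, a description over probes that share a slide and a replicate number. The cause was not tested.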
